A study of Mus musculus with 6 samples.

Results

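Genes of cell division and DNA replication were examined in skin of the inbred mouse strain C3H/HeJ, from mice that had developed alopecia areata, an autoimmune hair loss, spontaneously and from unaffected mice. The set was a list of 40 genes named for their roles: 13 act in DNA replication, 24 in mitosis and 3 are cyclins of the G1 phase. Of the 40, 39 were measured among 18193 genes, each by the brightest of its probe sets that the platform annotation pairs with a single gene symbol. No such probe set was found for the cyclin Ccnb1, so 23 mitosis genes were measured. The 3 alopecic arrays came from affected alopecic skin and the 3 unaffected arrays from skin of mice without the disease, with total RNA from 1 mouse on each array. No age, sex, body site or treatment is given for either group in the sources used here. Values are log2 expression after RMA, so that a difference of 1 is a doubling, and levels of different probe sets are not compared with each other.

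A dividing cell first licenses its replication origins with the MCM helicase, copies its DNA in S phase with the sliding clamp PCNA and a supply of nucleotides, and then separates the copies in mitosis under the cyclin-dependent kinase CDK1 and the Aurora and Polo-like kinases. Transcripts of replication genes are known to rise around the start of S phase under the E2F factors, and those of mitosis genes later, through an element called the cell cycle genes homology region (CHR). In skin, dividing cells are found in the basal epidermis, in the sebaceous gland and, when a follicle is growing, in the hair matrix, the bulb tissue that makes the hair shaft. Activated lymphocytes also divide.

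The promoters show the sequence side of the split between replication and mitosis in part, and 3 of each are printed for that reason. They are chosen examples: each carries the letters typical of its class, which not all genes of the class do. The RefSeq table of promoters (GRCm38.p6) held windows of 250 bases before to 50 after the start for 32 of the 40 genes, 2 of them with 2 windows. Each stretch below covers the 170 bases before the start, 5′ to 3′ on the strand of the gene. Capitals mark the CHR letters TTTGAA, the NF-Y box CCAAT and 2 forms of the E2F site, TTCCCGC and the related TTGGCGC. Letters matched on the complementary strand are in capitals too, as their reverse complement. The first 3 genes act in mitosis and the last 3 in replication. Matches outside the printed stretch are not shown, among them the E2F form TTGGCGC at -178 in the mitosis gene Cdk1.
Cdc20 (chr4:118437344-118437513, - strand): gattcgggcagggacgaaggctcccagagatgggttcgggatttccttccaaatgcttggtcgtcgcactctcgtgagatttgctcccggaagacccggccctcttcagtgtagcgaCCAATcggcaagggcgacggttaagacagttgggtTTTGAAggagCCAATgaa
Cdk1 (chr10:69352913-69353082, - strand): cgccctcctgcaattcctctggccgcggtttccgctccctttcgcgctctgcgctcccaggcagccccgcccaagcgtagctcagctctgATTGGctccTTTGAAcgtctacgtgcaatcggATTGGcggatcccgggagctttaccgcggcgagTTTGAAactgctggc
Kif11 (chr19:37376212-37376381, + strand): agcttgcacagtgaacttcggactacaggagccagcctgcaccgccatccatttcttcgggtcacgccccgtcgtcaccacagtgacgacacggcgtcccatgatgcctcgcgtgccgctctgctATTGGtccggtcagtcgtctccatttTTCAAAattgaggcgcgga
Mcm6 (chr1:128359706-128359875, - strand): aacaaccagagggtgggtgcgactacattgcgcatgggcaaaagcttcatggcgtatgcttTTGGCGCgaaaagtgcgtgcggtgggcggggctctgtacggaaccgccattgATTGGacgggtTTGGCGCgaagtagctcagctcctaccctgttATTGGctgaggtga
Rrm1 (chr7:102441525-102441694, + strand): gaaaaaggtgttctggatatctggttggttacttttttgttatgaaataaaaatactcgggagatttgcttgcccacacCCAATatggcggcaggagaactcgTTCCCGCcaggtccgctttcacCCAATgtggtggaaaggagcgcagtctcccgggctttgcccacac
Mcm5 (chr8:75109339-75109508, + strand): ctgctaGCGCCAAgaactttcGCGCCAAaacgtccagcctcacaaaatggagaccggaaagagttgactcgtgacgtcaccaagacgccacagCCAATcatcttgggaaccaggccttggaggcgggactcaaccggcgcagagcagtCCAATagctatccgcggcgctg

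In the whole windows, TTTGAA was present in 13 of 19 mitosis genes and in 1 of 12 replication genes, Mcm2, against 20.2% of the 27025 genes in the table. Either form of the E2F site was present in 8 of 12 replication genes and in 4 of 19 mitosis genes, against 7.79% of all genes (5.29% with TTCCCGC, 2.85% with the other form). CCAAT, the letters bound by the factor NF-Y, was found in 16 of 19 mitosis and 8 of 12 replication genes, against 41.1% of all. Of the matches in the members' windows, 4 pairs overlapped. A match describes the letters and is no evidence of binding, and the genes of the table were not matched for base composition. Among the 18 measured mitosis genes with a window, 13 carried TTTGAA and 5 did not. Their median log2 differences between alopecic and unaffected skin were 1.48 with TTTGAA and 1.62 without it. With unaffected replicate 3 left out, the medians were 0.50 with TTTGAA (Ncapg and Prc1) and 0.43 without it (Mad2l1). Both were smaller and their order was reversed, so the order depends on unaffected replicate 3.

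The arrays as a whole set the frame for these genes. Keratins of the basal epidermis were bright in all 6 arrays, with Krt14 between 13.47 and 14.28, and so were genes of skeletal muscle (mean over 5 markers from 12.03 to 14.64). Granzyme A (Gzma), of cytotoxic lymphocytes, lay between 9.37 and 11.89 in alopecic and between 4.97 and 5.44 in unaffected skin. Unaffected replicate 3 stood apart: the mean log2 level of 9 hair shaft keratins was 6.11 there, against 12.23 and 13.18 in the other unaffected arrays and 10.13 to 10.95 in the alopecic ones. The 7 hair matrix markers averaged 6.14 in that array, 7.98 in alopecic replicate 1 and 10.41 to 10.62 in the remaining 4. For the 39 genes and the marker lists, differences between the groups that moved by over 1.5 times without unaffected replicate 3 are therefore also given without it. The beta-actin control probe sets, whose 3′ and 5′ signals bear on RNA integrity, differed by a log2 value of 0.39 in that array and 0.47 to 1.30 in the others. Those of Gapdh differed by 0.31 in that array and by -0.08 to 0.52 in the others, so the controls did not rank the arrays alike.

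Between alopecic and unaffected skin, no gene of the set passed the test. All 39 measured genes had a higher mean in alopecic skin, by log2 differences from 0.14 (Foxm1) to 1.71 (Top2a) with a median of 1.08, against a median of -0.01 over all 18193 genes, of which 48.6% were higher. Of the 39, 0 had an adjusted p under 0.05 in limma (smallest adjusted p = 0.736) and 0 an unadjusted p under 0.05, where 0.275% of all genes were called, 0.264% higher and 0.011% lower. An unadjusted p under 0.05 was found for 7.15% of all genes, 4.80% higher and 2.35% lower. In none of the 39 did the alopecic arrays lie clear of the unaffected ones, whereas 13.1% of all genes had groups without overlap, 6.93% with the alopecic arrays above and 6.12% with them below. Without alopecic replicate 1 the groups were separate in 25 of them (28.5% of all genes), and without unaffected replicate 1 in 30 (23.7% of all genes), with 0 called in either fit. The genes share the 6 arrays and moved together, so their common direction is not that of 39 separate measurements.

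**Figure D1:**
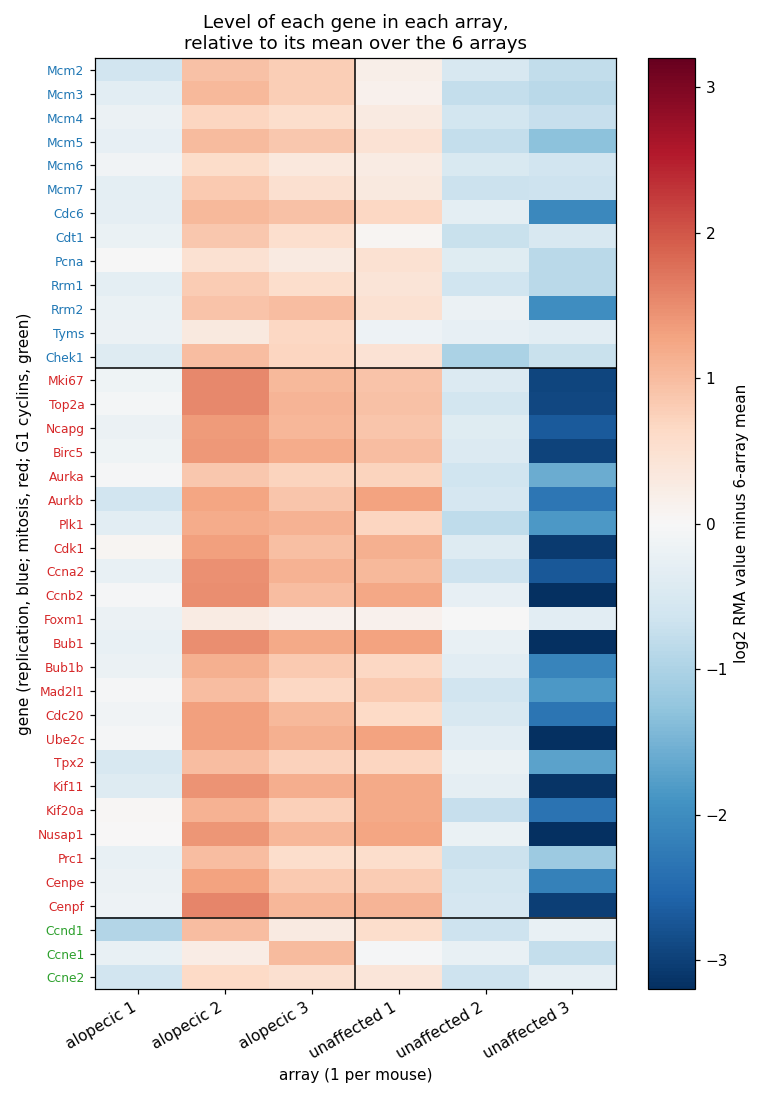
Log2 level of each of the 39 genes (rows) in each array (columns), as the deviation from the gene's mean over the 6 arrays. Alopecic replicates 2 and 3 and unaffected replicate 1 are high, alopecic replicate 1 and unaffected replicate 2 lie lower, and unaffected replicate 3 is far below the others for most mitosis genes but not for most replication genes.

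The order of the mice was shared across the set and cut across the groups. Alopecic replicate 1 was the lowest alopecic array for all 39 genes (44.1% of all genes), and unaffected replicate 1 was the highest unaffected array for all 39 (27.4% of all genes). Alopecic replicate 2 was the highest of the 6 arrays for 34 genes, against 15.8% of all genes. Unaffected replicate 3 was the lowest of the 6 for 34 genes, among them all 23 mitosis genes, against 29.1% of all genes. Unaffected replicate 1 lay above alopecic replicate 1 for all 39 genes, and above all alopecic arrays for Aurkb and Kif20a. Its median difference from the mean of alopecic replicates 2 and 3 was -0.17 for mitosis and -0.38 for replication genes.

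Replication genes formed a tighter class than mitosis genes. Their 13 log2 differences ran from 0.51 to 1.13 with a median of 0.73, or 1.66-fold, and the median SD was 0.59 over alopecic and 0.57 over unaffected arrays. The MCM genes, which encode the subunits of the replicative helicase, differed by 0.55 (Mcm6) to 1.07 (Mcm5). Mcm3 had log2 values of 8.95, 10.31 and 10.06 in the alopecic arrays and 9.42, 8.51 and 8.40 in the unaffected arrays. Unaffected replicate 1 thus lay above alopecic replicate 1, and the difference of 0.99 (SE 0.45) had an adjusted p of 0.756 in limma. Mcm5 stood at 9.94, 11.22 and 11.07 in alopecic and at 10.68, 9.45 and 8.89 in unaffected skin, a difference of 1.07 (SE 0.56, adjusted p = 0.803). The overlap was of the same kind, with unaffected replicate 1 between the alopecic arrays. For Mcm2, Mcm4, Mcm6 and Mcm7 the differences were 0.73, 0.71, 0.55 and 0.69, with SEs of 0.49, 0.36, 0.29 and 0.40. With unaffected replicate 3 left out, Mcm5 differed by 0.68 and the 6 MCM genes by 0.39 to 0.81.

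The licensing factors load the MCM helicase onto origins. Cdt1 had values of 9.68, 10.76 and 10.43 in alopecic and 9.95, 9.17 and 9.37 in unaffected skin, and differed by 0.79 (SE 0.34, adjusted p = 0.736). Only unaffected replicate 1 overlapped the alopecic arrays, and unaffected replicate 3 was not the lowest. Cdc6 stood at 6.93, 8.25 and 8.15 against 7.88, 6.90 and 5.16, a difference of 1.13 (SE 0.75, adjusted p = 0.857). Here unaffected replicate 3 minus unaffected replicate 2 was -1.74, at a dim level under the lowest array median of 6.11. Without that array the difference of Cdc6 was 0.39.

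Pcna, the sliding clamp, had values of 12.41, 12.93 and 12.72 in alopecic and 12.92, 12.05 and 11.56 in unaffected skin (difference 0.51, SE 0.36, adjusted p = 0.859), and the difference was 0.20 without unaffected replicate 3. Ribonucleotide reductase makes deoxyribonucleotides, and its subunits went apart in unaffected replicate 3. The large subunit gene Rrm1 stood at 10.31, 9.26 and 9.03 in unaffected skin, so that unaffected replicate 3 minus unaffected replicate 2 was -0.23. The small subunit gene Rrm2 stood at 10.95, 10.26 and 8.47 there, a step of -1.79. In alopecic skin Rrm1 had 9.58, 10.70 and 10.46 and Rrm2 had 10.25, 11.37 and 11.45. Their differences between the groups were 0.72 (SE 0.44) and 1.13 (SE 0.70), and without unaffected replicate 3 they were 0.47 and 0.42. Chek1, the kinase of the replication checkpoint, differed by 0.84 (SE 0.53, adjusted p = 0.845), with unaffected values of 8.17, 6.70 and 6.98. Tyms, which makes thymidylate, was dim on each of its 4 probe sets, and its brightest ran from 4.12 to 5.11 over the 6 arrays, under the array medians throughout, so its difference of 0.52 (SE 0.23) was close to the background of the array.

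Mitosis genes had larger differences and far larger spreads in unaffected skin. Their 23 log2 differences ran from 0.14 to 1.71 with a median of 1.48, or 2.79-fold. Of the 23, 20 differed by at least 1, a size that 3 of 13 replication genes and 2.68% of all genes reached. That count rests on unaffected replicate 3: without it the largest difference was 0.71 among mitosis and 0.81 among replication genes, so that none reached 1. The median SD over the arrays was 0.78 in the alopecic group but 1.82 in the unaffected group. The median SE of a difference was 0.99. The smallest adjusted p of the class was 0.821, for Cdc20.

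Mki67, which encodes the proliferation marker Ki-67, had log2 values of 10.69, 12.38 and 11.88 in alopecic and 11.76, 10.41 and 7.90 in unaffected skin. Only unaffected replicate 3 lay well below the rest, and unaffected replicate 1 lay above alopecic replicate 1. The difference was 1.62 (SE 1.03, adjusted p = 0.845), or 3.08-fold, and 0.56 without unaffected replicate 3. Top2a, the topoisomerase that untangles sister chromatids, stood at 10.42, 12.03 and 11.58 against 11.42, 9.91 and 7.57, with the largest difference of the set over 6 arrays, 1.71 (SE 1.02, adjusted p = 0.838). Without unaffected replicate 3 that of Top2a was 0.68, below Mcm3 at 0.81, Cdt1 at 0.73, Plk1 at 0.71 and Chek1 at 0.69. Ncapg, a condensin subunit, and Birc5, which encodes survivin of the chromosomal passenger complex, differed by 1.48 (SE 0.96) and 1.62 (SE 1.04), and by 0.50 and 0.54 without that array.

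Among the kinases and cyclins that drive entry into mitosis, Cdk1 stood at 9.07, 10.32 and 9.97 in alopecic and at 10.16, 8.61 and 5.94 in unaffected skin. Its difference of 1.55 (SE 1.07, adjusted p = 0.857) became 0.40 without unaffected replicate 3. The cyclin partners Ccnb2 and Ccna2 differed by 1.62 (SE 1.20) and 1.57 (SE 1.0), and by 0.32 and 0.60 without that array. Ccnb2 had values of 8.68, 10.21 and 9.71 against 9.97, 8.46 and 5.31, so that unaffected replicate 3 minus unaffected replicate 2 was -3.15, at a level under the lowest array median. The kinases Plk1, Aurka and Aurkb differed by 1.31, 1.03 and 1.04, with SEs of 0.74, 0.61 and 0.99. Without unaffected replicate 3 they differed by 0.71, 0.48 and 0.15. Aurkb was highest in unaffected replicate 1, at 8.95, above alopecic replicate 2 at 8.93.

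Foxm1, the transcription factor of mitosis genes, had the smallest difference of the set. Its brightest probe set stood at 7.23, 7.67 and 7.54 in alopecic and at 7.55, 7.39 and 7.07 in unaffected skin, a difference of 0.14 (SE 0.19, adjusted p = 0.907), and of 0.01 without unaffected replicate 3. A dimmer probe set of the gene varied more, with 6.28, 7.58 and 7.14 against 7.20, 6.25 and 5.74 (difference 0.60, SE 0.48), with unaffected replicate 3 lowest and alopecic replicate 2 highest. The remaining probe sets were closer to the brightest: one, between 6.65 and 7.14, differed by 0.09 (SE 0.16). Another, dim at 3.62 to 3.90, differed by 0.00. The probe sets of Foxm1 thus disagree in size, and the small difference of the brightest is not that of every probe set.

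Genes of the spindle checkpoint and of its release differed by 1.08 to 1.64 over 6 arrays and by 0.30 to 0.68 without unaffected replicate 3. Bub1, a checkpoint kinase, stood at 8.11, 9.84 and 9.57 in alopecic and 9.64, 8.11 and 4.84 in unaffected skin, a difference of 1.64 (SE 1.26, adjusted p = 0.859) over 6 arrays and of 0.30 without unaffected replicate 3. The checkpoint genes Bub1b and Mad2l1 differed by 1.19 (SE 0.76) and 1.08 (SE 0.69), and by 0.43 each without it. Cdc20, which activates the anaphase-promoting complex, had values of 10.39, 11.81 and 11.55 against 11.15, 9.99 and 8.16, a difference of 1.48 (SE 0.81), or 0.68 without it. Ube2c, the ubiquitin-conjugating enzyme of that complex, stood at 9.59, 10.96 and 10.77 against 10.93, 9.30 and 6.29, so its unaffected values ran over more than 4 log2 units. Its difference was 1.60 (SE 1.19, adjusted p = 0.859), or 0.33 without unaffected replicate 3.

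Spindle and kinetochore genes held both ends of the range among the rest. Nusap1, a microtubule-bundling protein, had 8.54, 9.95 and 9.59 in alopecic and 9.81, 8.32 and 5.02 in unaffected skin. Unaffected replicate 3 minus unaffected replicate 2 was -3.30, the largest such step of the 39 genes. The spindle motor Kif11 stood at 4.58 in unaffected replicate 3, against 7.42 and 8.92 in the other unaffected arrays. The motor Kif20a was highest in unaffected replicate 1, at 8.62. Prc1, which bundles microtubules of the central spindle, varied less: it stood at 8.66, 9.88 and 9.45 against 9.46, 8.20 and 7.74. Differences between the groups were 1.64 for Nusap1 (SE 1.23), 1.47 for Kif11 (SE 1.16), 1.27 for Kif20a (SE 0.90), 0.86 for Prc1 (SE 0.53) and 0.82 for Tpx2, a spindle assembly factor (SE 0.70). The kinetochore genes Cenpe and Cenpf differed by 1.28 (SE 0.80) and 1.64 (SE 1.08). Without unaffected replicate 3 the differences were 0.29 for Nusap1, 0.28 for Kif11, 0.40 for Kif20a, 0.50 for Prc1 and 0.17 for Tpx2, and 0.53 and 0.54 for Cenpe and Cenpf.

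The 3 G1 cyclins, which act before S phase, had a median difference of 0.37. Their mean deviations by array were -0.59, 0.62 and 0.61 in alopecic and 0.31, -0.51 and -0.43 in unaffected skin. Ccnd1 stood at 9.71, 11.64 and 10.93 in alopecic and at 11.21, 9.99 and 10.41 in unaffected skin, a difference of 0.23 (SE 0.56, adjusted p = 0.950). Its lowest array was alopecic replicate 1, and unaffected replicate 3 minus unaffected replicate 2 was 0.42. The sign of its difference was not stable: it was -0.22 with alopecic replicate 2 left out, -0.05 with unaffected replicate 2 left out, and 0.75 and 0.56 with alopecic or unaffected replicate 1 left out. Ccne1 was highest in alopecic replicate 3, at 8.59, and differed by 0.68 (SE 0.37), while Ccne2 differed by 0.37 (SE 0.43).

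**Figure D2:**
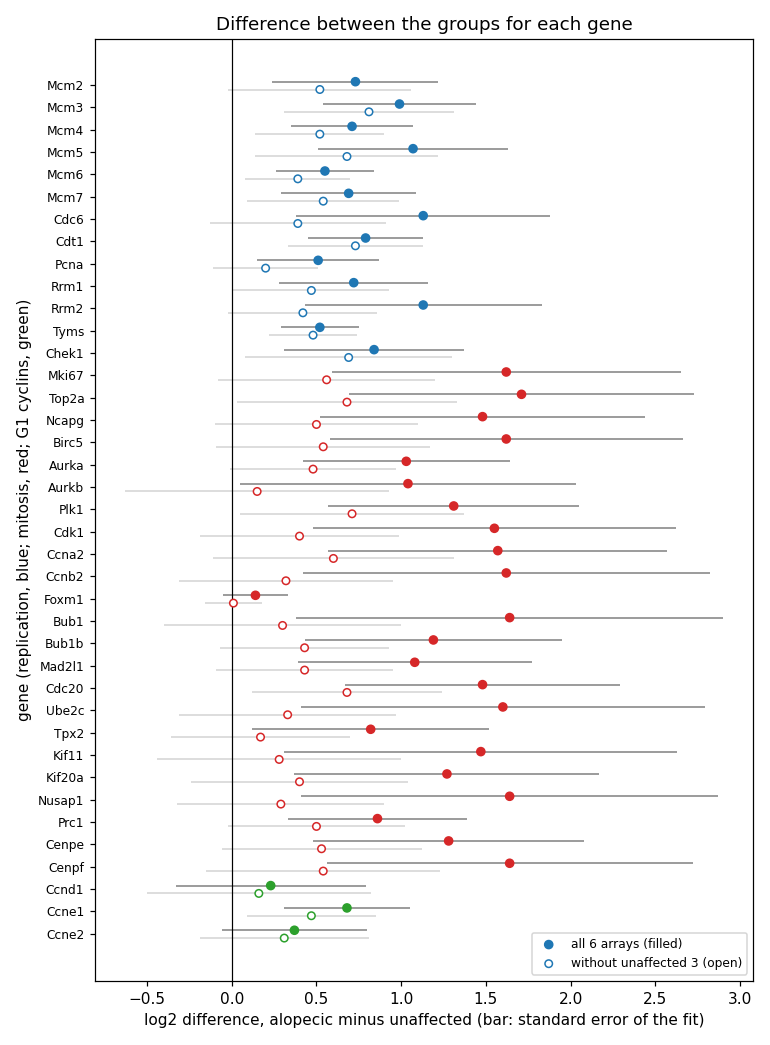
Log2 difference between alopecic and unaffected skin for each gene, with its standard error, over all 6 arrays (filled points) and without unaffected replicate 3 (open points). Over 6 arrays most mitosis genes lie to the right of the replication genes, with a median of 1.48 against 0.73. The ranges overlap, from 0.14 to 1.71 for mitosis and from 0.51 to 1.13 for replication genes. Without that array the medians are 0.43 and 0.52.

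The comparison of mitosis with replication genes turned on unaffected replicate 3. Over 6 arrays the medians of the classes differed by 0.75, and without that array by -0.09, with medians of 0.43 for mitosis and 0.52 for replication genes. Without unaffected replicate 1 the gap was 1.26, and the mitosis median 2.29. Without unaffected replicate 3, 0 of 39 genes passed and 0 had an unadjusted p under 0.05 (smallest adjusted p = 0.625), while 0.214% of all genes were called. In that limma fit, 1836 of all 18193 genes had an unadjusted p under 0.05. With the mean of all probe sets of a gene the gap was 0.43. These medians describe the chosen genes, and no p is given for a class.

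Among unaffected mice, the classes moved in different ways, as steps of 1 and 0.5 log2 units, chosen after the values were seen, show. From unaffected replicate 2 to unaffected replicate 1 both were higher, by a median of 1.49 for mitosis and 0.87 for replication genes, and 36 of the 39 genes by at least 0.5, against 8.55% of all genes. From unaffected replicate 2 to unaffected replicate 3, mitosis genes were lower by a median log2 difference of -2.07, or 4.19-fold, and replication genes by -0.15, or 1.11-fold. That step was at least 1 for 20 of 23 mitosis genes and for 2 of 13 replication genes, Cdc6 and Rrm2, against 8.5% of all genes. The mitosis genes with a smaller step were Aurka at -0.95, Prc1 at -0.47 and Foxm1 at -0.33. In unaffected replicate 3, 14 of 23 mitosis genes lay below the lowest array median of 6.11, near the dim end of the scale, where a fold is not an exact ratio. The same was true of 2 of 13 replication genes, Cdc6 and Tyms.

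**Figure D3:**
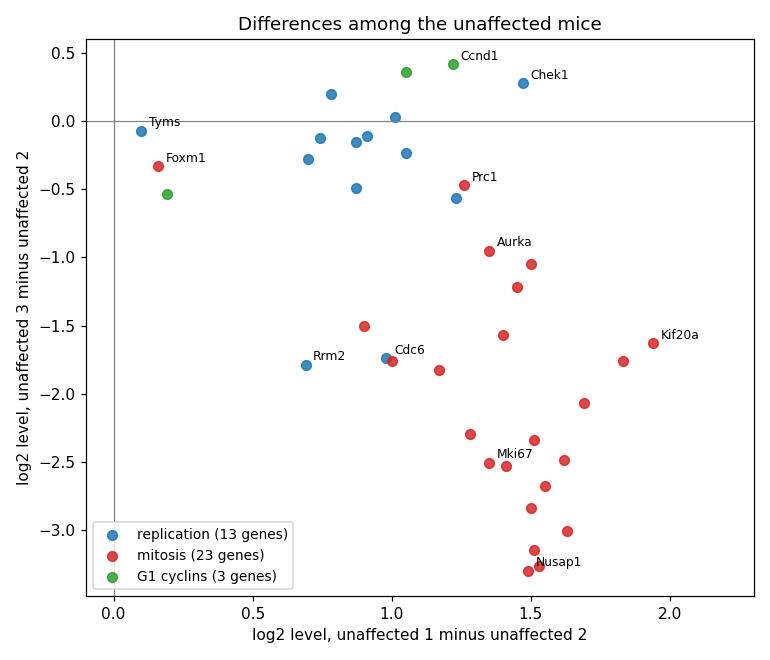
Each point is 1 gene: its log2 level in unaffected replicate 1 (horizontal axis) and unaffected replicate 3 (vertical axis), each minus that in unaffected replicate 2. Most replication genes lie between -0.56 and 0.28 on the vertical axis, with Cdc6 and Rrm2 below at -1.74 and -1.79, and mitosis genes reach down to -3.30.

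Levels of each class by array put numbers on this pattern. As the mean deviation from each gene's 6-array mean, mitosis genes stood at -0.18, 1.25 and 0.93 in the alopecic arrays and at 0.94, -0.46 and -2.48 in the unaffected ones. Replication genes stood at -0.27, 0.81 and 0.65, and at 0.31, -0.56 and -0.95. Mitosis minus replication was therefore between 0.09 and 0.62 in 5 arrays and -1.53 in unaffected replicate 3. The alopecic mean of the mitosis class was 0.67 ± 0.75 and its unaffected mean -0.67 ± 1.72 (SD over 3 arrays each), and those of the replication class 0.40 ± 0.58 and -0.40 ± 0.65.

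**Figure D4:**
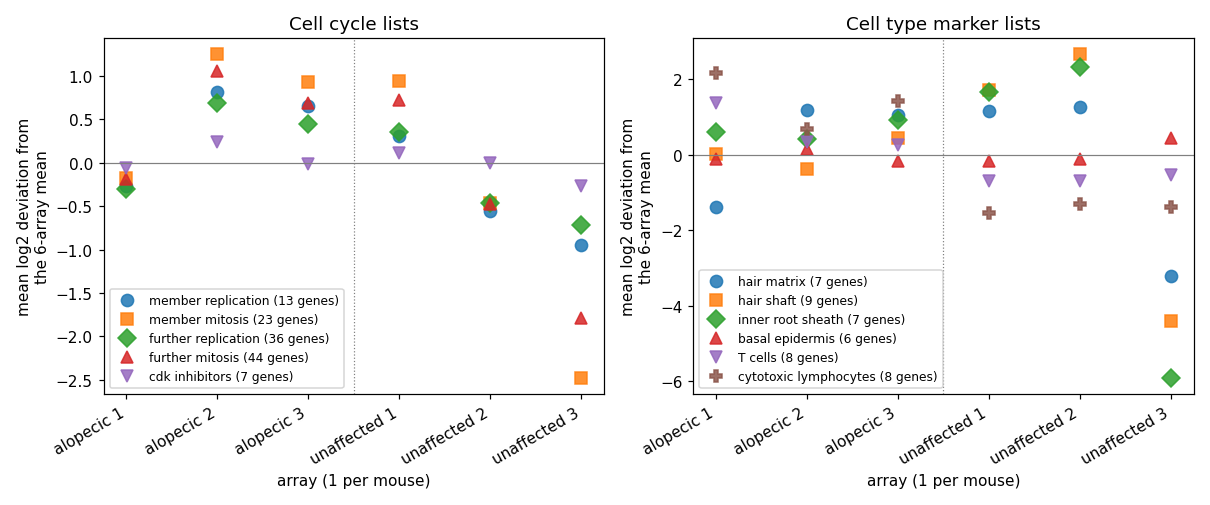
Mean log2 deviation from the 6-array mean, for lists of cell cycle genes (left) and of cell type markers (right), in each array. Mitosis genes are at -2.48 in unaffected replicate 3, where hair matrix, hair shaft and inner root sheath markers also lie lowest, at -3.22, -4.42 and -5.92. The mean of the basal epidermis markers is highest in that array, at 0.43, although Krt14 is lowest there and Krt5 is highest in alopecic replicate 3.

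Markers of other cell types moved with these genes in part. Hair matrix markers such as Krt35, Dlx3 and Hoxc13 deviated by -1.39, 1.17 and 1.04 in the alopecic arrays and by 1.14, 1.25 and -3.22 in the unaffected ones. They shared the low alopecic replicate 1 and unaffected replicate 3 with the mitosis genes, but were high in unaffected replicate 2, where both classes were low. In 7 of 7 hair matrix markers unaffected replicate 3 was at least 1 log2 unit below unaffected replicate 2. Melanocyte markers deviated by -2.42, 0.17 and 1.36 in alopecic and by 2.42, 0.83 and -2.37 in unaffected arrays. Basal epidermis markers (Krt5, Krt14, Krt15 and others) deviated by -0.18 to 0.43. The mean of 8 T cell markers, Cd3g, Cd3e and Cd3d the brightest, was highest in alopecic replicate 1, at 1.37, where the members were lowest within the group, and stood at 0.32 and 0.24 in the other alopecic arrays and between -0.71 and -0.54 in unaffected skin. Of the 8, 7 had a higher mean in alopecic skin, Cd3e by 0.52 and Cd3d by 1.80, and Cd4, chosen after its values were seen, differed by -0.16. Markers of cytotoxic lymphocytes (Gzma, Nkg7, Ccl5 and others) were also highest in alopecic replicate 1, at 2.17, and lay between -1.56 and -1.32 in unaffected skin. All 8 had groups without overlap, with the alopecic arrays above (6.93% of all genes), and 0 of 8 passed the test (median difference 2.31, smallest adjusted p = 0.0576). From unaffected replicate 2 to unaffected replicate 3, the step at which mitosis genes were lower, the median log2 step was 1.99 for skeletal muscle (5 of 5 markers higher), 0.86 for endothelium and 0.70 for basal epidermis. It was largest for inner root sheath, at -8.48, and hair shaft, at -7.63. It was -3.91 for hair matrix, -3.42 for melanocytes, -3.11 for adipocytes, -1.75 for macrophages, -0.92 for fibroblasts and -0.91 for sebocytes. For differentiated epidermis it was -0.67, for B cells -0.19, for cytotoxic lymphocytes -0.04 and for T cells 0. The part of these cell types in the results was not tested. In bulk tissue, fewer dividing cells and less RNA per cell cannot be told apart.

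The median differences of the other marker lists between alopecic and unaffected skin were 0.56 for hair matrix, 0.00 for hair shaft, 1.42 for inner root sheath, -0.04 for basal epidermis, -0.37 for differentiated epidermis, 1.68 for T cells, -0.08 for B cells and 0.26 for macrophages. For sebocytes the median was 0.49, for melanocytes -0.54, for fibroblasts -0.02, for endothelium -0.31, for adipocytes -0.56 and for skeletal muscle 0.17. Unaffected replicate 3 set the sign of several of these medians. Without it they were -0.87 for hair matrix, -2.18 for hair shaft, -1.28 for inner root sheath, -0.47 for sebocytes, -0.14 for macrophages, 0.24 for basal epidermis and 0.12 for endothelium, each of the other sign except that of hair shaft, which had been at 0. They were -1.98 for melanocytes, -1.50 for adipocytes, -0.44 for fibroblasts and 0.71 for skeletal muscle, further from 0 than over 6 arrays, and -0.05 for B cells. None of the genes on these lists passed the test. The B cell markers averaged 4.51 to 4.71 in every array, in the range of dim probe sets.

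Further genes of the pathway, outside the 40, also gave no call. Unaffected replicate 3 was the lowest array for 43 of 44 further mitosis and for 24 of 36 further replication genes, against 29.1% of all genes. Of the 44 further mitosis genes 0 passed and 43 had a higher mean in alopecic skin, with a median log2 difference of 1.07. That median was 0.39 with unaffected replicate 3 left out and 1.70 with unaffected replicate 1 left out. In 30 of the 44, unaffected replicate 3 was at least 1 below unaffected replicate 2, against 3 of 36 further replication genes. The further mitosis genes with the smallest p were Gtse1, at 0.47 (SE 0.20), Incenp of the chromosomal passenger complex, at 1.11 (SE 0.53), and Anln, which encodes the contractile ring protein anillin, at 1.12 (SE 0.59). The last pair differed by 0.74 and 0.65 without unaffected replicate 3. Anln stood at 9.65, 10.50 and 10.04 in alopecic and 10.21, 8.61 and 8.0 in unaffected skin. Kif15, chosen after its values were seen, was the 1 with a lower mean, at -0.13.

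Of 36 further replication genes 0 passed, and the median was 0.52 (0.81 or 0.83 with alopecic or unaffected replicate 1 left out, 0.34 with alopecic replicate 2 left out). Those with the smallest p were the histone chaperone subunit Chaf1b, at 0.90 (SE 0.38, adjusted p = 0.733), the maintenance DNA methyltransferase Dnmt1, at 0.60 (SE 0.33), and Timeless of the fork protection complex, at 0.76 (SE 0.41). Without unaffected replicate 3, Dnmt1 differed by 0.39 and Timeless by 0.50. Chaf1b stood at 7.24, 8.38 and 7.98 in alopecic and at 7.56, 6.75 and 6.59 in unaffected skin, with unaffected replicate 1 above alopecic replicate 1. In Orc1, chosen after its values were seen, the alopecic arrays lay below the unaffected ones, by -0.18 on average.

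Of 26 regulators of the cycle measured, 0 passed and 4 had an unadjusted p under 0.05 (7.15% of all genes). The groups did not overlap in 4 of the 26, all higher in alopecic skin, against 13.1% of all genes without overlap in either direction. Cdk6, a kinase partner of the D-type cyclins, stood at 9.86, 10.15 and 10.19 in alopecic and at 9.26, 9.40 and 9.35 in unaffected skin. All alopecic arrays were above all unaffected ones, and unaffected replicate 3 was not the lowest. The difference was 0.73 (SE 0.13, adjusted p = 0.176), or 1.66-fold. The cyclin Ccnd3 stood at 8.93, 8.89 and 9.12 against 8.28, 8.68 and 8.35, a difference of 0.54 (SE 0.15, adjusted p = 0.501). Lin37 and Lin54, subunits of the DREAM and MuvB complexes that bind promoters of cell cycle genes, and chosen here after their values were seen, were the others of the 4 without overlap, where 6.93% of all genes were higher in that way. They differed by 0.33 (SE 0.14) and 0.45 (SE 0.19), the latter by 0.26 without unaffected replicate 3. E2f1, an activating E2F factor, differed by 0.62 (SE 0.24, adjusted p = 0.686), with 6.87, 7.61 and 7.50 against 6.97, 6.64 and 6.51. The median of the list was 0.26 (0.47 or 0.46 with alopecic or unaffected replicate 1 left out, 0.17 with alopecic replicate 2 left out and 0.12 with unaffected replicate 3 left out).

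Of 7 inhibitors of cyclin-dependent kinases measured, 0 passed, and 5 had a higher mean in alopecic skin, with a list median of 0.26. That median ran from -0.03 with unaffected replicate 2 left out to 0.42 with unaffected replicate 1 left out, and was 0.07 and 0.02 with alopecic replicate 2 or unaffected replicate 3 left out. Cdkn1a, which encodes p21, stood at 12.10, 12.21 and 12.36 in alopecic and at 12.41, 12.80 and 12.32 in unaffected skin, a difference of -0.28 (SE 0.16, adjusted p = 0.838). Cdkn1c, which encodes p57, differed by -0.64 (SE 0.30, adjusted p = 0.769) and was highest in unaffected replicate 3, at 8.45. Cdkn2a, the locus of p16 and p19Arf, differed by 0.70 (SE 0.23, adjusted p = 0.583) without overlap between the groups. Its values of 3.95 to 5.28 were dim in every array.

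The members' other probe sets bore on how far single values can be read. The 39 genes had 92 probe sets, and 28 genes had more than 1. Of the 53 further probe sets, 46 had a difference above 0 and 7 below, and of the 29 whose mean lay at or above 6.11, all 29 had a difference above 0. None of the 92 passed in a limma fit over all probe sets with a single symbol. Dimmer probe sets often showed little of the gap in unaffected replicate 3: it was at least 1 below unaffected replicate 2 in 7 of 24 further probe sets of mitosis genes and in 2 of 26 of replication genes. These counts were not limited to means at or above 6.11. Probe sets near background in every array, such as one of Tpx2 between 5.47 and 5.69, leave little room for a gap. Bub1 shows the contrast, with a gap of -3.27 on its brightest probe set and 0.29 on a dim one between 4.64 and 5.26. For Kif11, a second bright probe set had a gap of -2.15. A Top2a probe set between 6.96 and 8.15 had a gap of 0.52 in the other direction, against -2.34 on its brightest.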

How the data were processed

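Total RNA from the skin of 6 mice was measured on 1 oligonucleotide array per mouse; per the labels' protocols the labelling kit was a 3′ IVT kit, which reads transcripts near their 3′ end. The authors' table holds log2 expression for each probe set. RMA is named in the submitters' processing notes, with its version not given in the sources used here. The 45101 probe sets ran from 3.07 to 14.92, with array medians from 6.11 to 6.17, and were used as deposited. The 34945 probe sets with 1 gene symbol gave 18193 genes, each by the probe set with the highest mean; symbols were updated through RefSeq gene identifiers.

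Alopecic and unaffected arrays were compared with limma 3.58.1 in R 4.3.3 (lmFit, eBayes, two-sided), with Benjamini-Hochberg adjustment over all genes and a threshold of 0.05. Adjusted p-values of single genes come from this fit. It was also run on simulated data, with genes varying independently and shifts larger than the difference of any member. That run does not bear on differences of the size seen here or on genes that move together. "Rose" or "fell" is used of no gene here, since no gene named passed. Errors are standard errors of the fit or SDs over 3 arrays. The design text says the replicates are different mice; 3 arrays per group limit the precision. The members and lists were chosen with earlier results of these data known. Named genes are all members, from each further pathway list the 3 with the smallest p, and up to 3 of the brightest markers per cell type list. Same-numbered arrays did not deviate together (correlations over genes of their deviations from the group means -0.132, -0.197 and -0.33), so the numbers were not taken as pairs. Alternatives were each array left out, a replicate block, the mean of all probe sets, dim genes left out, median centring, a prior with intensity trend, and other class membership.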

Additional observations from a re-analysis of the deposited data

How the results depend on the processing

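In each of the 11 alternative fits 0 members passed. Of 422 differences of single members in these fits, 420 kept their direction, and 2, both of Ccnd1, reversed. They were -0.22 with alopecic replicate 2 left out and -0.05 with unaffected replicate 2 left out. The count includes fits that cannot change a member's difference. These are the replicate block (39 differences), the prior with intensity trend (39) and the fit without dim genes (32), which do not bear on direction. The number of genes called, 50 over 6 arrays, was 33, 14 and 17 with alopecic replicates 1, 2 and 3 left out in turn and 7, 4 and 39 with unaffected replicates 1, 2 and 3 left out. With arrays left out, the difference of Ccnd1 ran from -0.22 to 0.75, members without overlap from 0 to 30, the median of mitosis members from 0.43 to 2.29, that of replication members from 0.52 to 1.09, the gap between them from -0.09 to 1.26, and the median of kinase inhibitors from -0.03 to 0.42. With the replicate block 0 genes were called in all; that fit has fewer residual degrees of freedom. With the mean of all probe sets 1 member, Tyms, which is dim, had groups without overlap (12.9% of all genes), and the mitosis median was 1.08. Leaving out dim genes, which removed 7 members, gave medians of 1.55 and 0.73 for mitosis and replication, median centring 1.39 and 0.64, and counting G1 cyclins with replication while leaving out Ccna2 and Chek1 1.48 and 0.71. The number of arrays, and signals near background in unaffected replicate 3, limit these values.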
